A study of Tupaia belangeri with 6 samples.

Results

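The carriers described here are the members of the mitochondrial carrier family SLC25, chosen by name: every locus whose gene name was SLC25A followed by a number and nothing else, with the TPM (a level scaled by transcript length and by the sum of the library) of rows with the same identifier on the same sequence summed. The rule found 37 genes, each with 1 locus at the same position in every library, among 95863 loci in all. RNA was measured in the prefrontal cortex of 6 adult tree shrews (Tupaia belangeri, a small mammal close to primates), 3 females numbered 1, 3 and 4 and 3 males numbered 1, 4 and 5. The labels give no treatment and no genotype for any animal, and the study's sample list puts each male at a greater age than each female, so sex and age cannot be told apart. Each library is a different animal, none was pooled, and the tissue is a mixture of cell types, in which fewer cells of a type and less RNA per cell cannot be told apart.

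Mitochondrial carriers are small membrane proteins, most of them in the inner mitochondrial membrane, that exchange or import the metabolites the organelle cannot let through freely: ADP and ATP, phosphate, amino acids, di- and tricarboxylates, nucleotides, cofactors and iron. Their number names follow the order of discovery rather than substrate, and several substrates are served by a set of closely related genes used by different tissues. In brain, the aspartate/glutamate exchanger of the malate-aspartate shuttle and the glutamate importers are among the best known, because they join glycolysis and transmitter glutamate to mitochondrial respiration.

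The gene tables list no read counts, so no interval for counting error could be given, and the mean depth listed for a locus is stated where it bears on a value. TPM over all loci summed to between 950532 and 971492. The 37 carriers together held 1174 to 1702 TPM, which was 0.123% to 0.175% of the TPM of a library. Loci to which the assembler gave no strand held 2.30%, 2.55% and 3.33% of the TPM of females 1, 3 and 4, against 5.16%, 2.67% and 7.88% for males 1, 4 and 5, so males 1 and 5 stood apart from the others in this respect. Neurons were well represented, with SNAP25, a synaptic vesicle fusion protein, between 3088 and 4861 TPM in every library. Nothing in the sources used here states a strand-specific protocol, so values of loci that overlap on opposite strands are uncertain. Of the 37 carriers, 23 overlapped a locus on the opposite strand that reached 1 TPM or more in some library, and 9 overlapped one without a strand.

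The levels of the carriers ran from listed at 0 to 393 TPM. In every library, 24 of the 37 were at 1 TPM or more, 14 were at 10 TPM or more and 2 were at 100 TPM or more. SLC25A4 was the highest of the 37 in 6 of 6 libraries and held 21.0% to 27.4% of their summed TPM. The 5 highest carriers of a library held 59.7% to 67.1% of it. By median, SLC25A4 was followed by SLC25A22, SLC25A17, SLC25A39, SLC25A12, SLC25A11, SLC25A29, SLC25A28, SLC25A16 and SLC25A25. Neighbours in this order overlapped: SLC25A17, SLC25A39 and SLC25A12 had medians of 128, 115 and 109 TPM, with ranges of 95.2 to 134, 60.8 to 120 and 89.9 to 135 TPM.

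**Figure D1:**
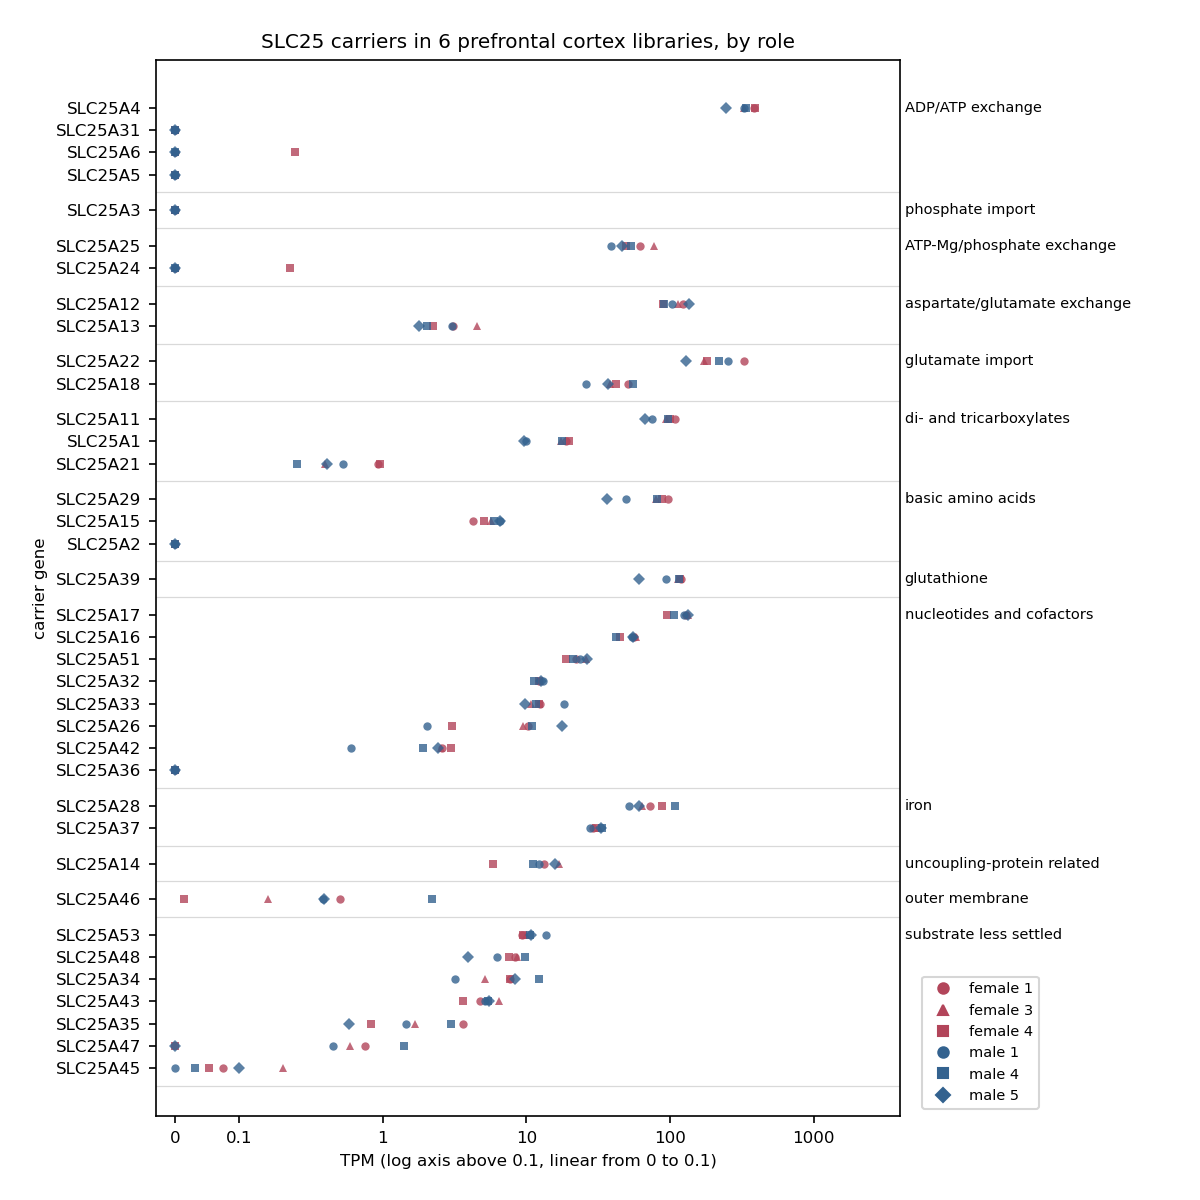
TPM of the 37 carriers (vertical axis, grouped by the substrate each is known for) in the 6 libraries, on a horizontal axis that is logarithmic above 0.1 TPM and linear between 0 and 0.1 TPM. Each point is 1 library, with color for sex and shape for the animal number. SLC25A4 stands at the top of the range, at 246 to 393 TPM, and 5 carriers lie at 0 in every library.

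The ADP/ATP carriers export the ATP made by the respiratory chain in exchange for cytosolic ADP. SLC25A4 (chromosome 19, 46637037 to 46642159 on genome TS_3.0), the form typical of heart, muscle and brain, had 387, 329 and 393 TPM in females 1, 3 and 4 and 329, 341 and 246 TPM in males 1, 4 and 5. Male 5 was the lowest, and the sexes overlapped. The widespread form SLC25A5 (chromosome 12, 45625319 to 45628353) and SLC25A31, the form of the germ line, were listed at 0 in every library. The other widespread form, SLC25A6 (chromosome 10, 93024483 to 93057727), was listed at 0 in 5 libraries and at 0.245 TPM in female 4. Under plain symbols alone, SLC25A4 therefore held 99.99% ± 0.0254 (SD, n = 6) of the ADP/ATP exchange TPM.

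This share rested on the naming of the loci. The annotation also names 17 gene-like copies of carriers (a symbol followed by "li" and a number), which the rule leaves out, and 1 copy each of SLC25A5 and SLC25A6 was strongly expressed. SLC25A6li2 (contig16420, 5345 to 8699) had 2215, 1957 and 2525 TPM in females 1, 3 and 4 and 1260, 2235 and 1380 TPM in males 1, 4 and 5, above SLC25A4 in every library. Males 1 and 5 were the low libraries. SLC25A5li8 (contig9513, 8822 to 12041) had 330, 322 and 306 TPM in the females and 285, 301 and 296 TPM in the males, the 6 libraries lying close together. With the copies added to their genes, SLC25A4 held 13.4% ± 2.10 (SD, n = 6) of the ADP/ATP exchange TPM, SLC25A5 12.4% ± 2.47 and SLC25A6 74.3% ± 4.15. The share of SLC25A4 was then 13.2%, 12.6% and 12.2% for females 1, 3 and 4, with 17.5%, 11.9% and 12.8% for males 1, 4 and 5. Near-identical copies can share reads, so how the TPM divides among these loci is uncertain.

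The same was seen for other carriers whose plain symbol was at or near 0. SLC25A36 (chromosome 1, 26231161 to 26232158), a pyrimidine nucleotide carrier, was listed at 0 in every library at a locus of 998 bases, whereas SLC25A36li1 (chromosome 24, 32366272 to 32409723) had 44.0 to 70.3 TPM. SLC25A46 (chromosome 10, 63391852 to 63726644), an outer-membrane protein of mitochondrial dynamics, had 0.0138 to 2.21 TPM, and SLC25A46li1, which runs into it from the opposite strand over 1464 bases, had 51.1 to 91.1 TPM. SLC25A42 (chromosome 27, 591024 to 592416), a coenzyme A carrier, is a locus of 1393 bases that lies wholly inside SLC25A42li1 on the opposite strand. It had 2.58, 2.53 and 2.98 TPM in females 1, 3 and 4 and 0.605, 1.91 and 2.42 TPM in males 1, 4 and 5. SLC25A42li1 had 22.3 to 38.5 TPM. For 6 of the 8 carriers that have such copies, the copies together exceeded the plain locus in 6 of 6 libraries. The exceptions were SLC25A1, whose copy was listed at 0 throughout, and SLC25A3.

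**Figure D2:**
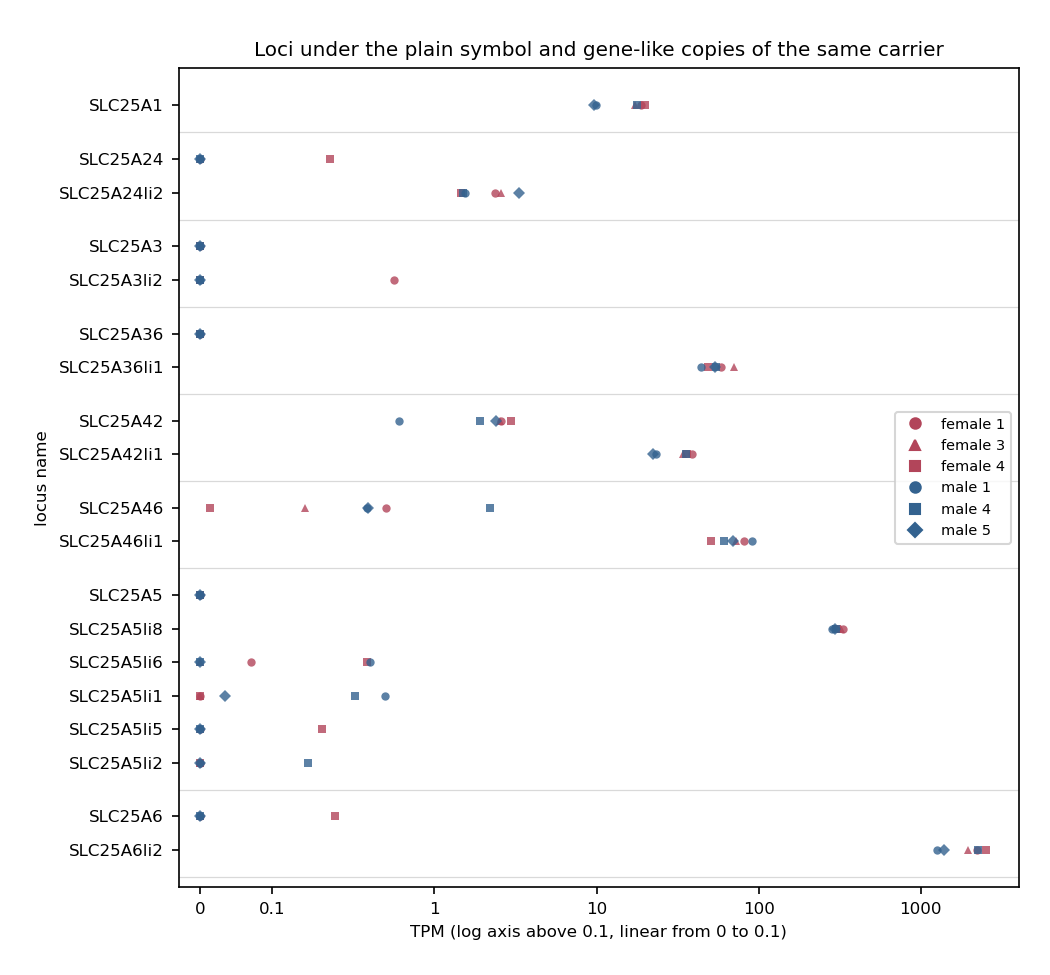
TPM of the 8 carriers with gene-like copies, each above its copies, in the 6 libraries; copies that never reached 0.1 TPM are not drawn. The horizontal axis is logarithmic above 0.1 TPM and linear between 0 and 0.1 TPM, and each point is 1 library. SLC25A6li2 and SLC25A5li8 lie at 1260 to 2525 and 285 to 330 TPM while the plain loci lie at or near 0.

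SLC25A3 (chromosome 4, 76340451 to 76352772), which imports the phosphate used for ATP synthesis, was listed at 0 in every library, and its copy was above 0 only in female 1, at 0.561 TPM. Respiring cells need this carrier, and other genes in general use were listed at 0 too: VDAC1, an outer-membrane channel, MDH1, the cytosolic malate dehydrogenase, and TOMM20, an import receptor. A listed 0 is therefore reported as listed and not as absence of the transcript. Of the 4 exchangers of ATP-Mg for phosphate, which set the adenine nucleotide content of the matrix, SLC25A23 and SLC25A41 had no locus of that name. SLC25A25 (chromosome 2, 88804874 to 88868633) had 62.3, 77.1 and 49.9 TPM in females 1, 3 and 4 and 38.8, 53.3 and 46.2 TPM in males 1, 4 and 5. SLC25A24 (chromosome 7, 94706955 to 94762127) was listed at 0 in 5 libraries and at 0.226 TPM in female 4, and its copies had 1.46 to 3.33 TPM.

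Within the aspartate/glutamate exchangers, the step of the malate-aspartate shuttle that moves reducing power from cytosolic NADH into mitochondria, the form known from brain and muscle prevailed over the form known from liver. SLC25A12 (aralar, chromosome 1, 153444115 to 153667212) had 124, 115 and 89.9 TPM in females 1, 3 and 4 and 103, 91.2 and 135 TPM in males 1, 4 and 5. SLC25A13 (citrin, chromosome 5, 101351716 to 101553060) had 3.09, 4.56 and 2.24 TPM in the females and 3.06, 2.02 and 1.79 TPM in the males. The 2 ranges lay far apart, and SLC25A12 was higher by 4.89 ± 0.41 (SD, n = 6) on the log2(TPM + 1) scale.

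The glutamate importers feed the glutamate dehydrogenase of the matrix. SLC25A22 (chromosome 7, 60802840 to 60818425) had 328, 174 and 182 TPM in females 1, 3 and 4 and 254, 220 and 129 TPM in males 1, 4 and 5. Female 1 was high and male 5 low, so that both sexes held a wide range. SLC25A18 (chromosome 2, 966820 to 1155071), the form linked to astrocytes, had 50.9, 38.0 and 42.2 TPM in the females and 26.2, 55.4 and 36.9 TPM in the males. SLC25A22 was higher in 6 of 6 libraries, by 2.31 ± 0.54 (SD, n = 6) on the log2(TPM + 1) scale.

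Among the di- and tricarboxylate carriers, SLC25A11 (chromosome 15, 27427781 to 27434665), the oxoglutarate carrier that completes the malate-aspartate shuttle, had 109, 94.7 and 99.8 TPM in females 1, 3 and 4 and 75.2, 97.6 and 66.8 TPM in males 1, 4 and 5. SLC25A1 (chromosome 22, 594831 to 702708), which exports citrate for lipid synthesis, had 18.9, 17.4 and 19.9 TPM in the females and 9.98, 17.8 and 9.61 TPM in the males. In both genes males 1 and 5 were the low libraries and male 4 lay among the females. SLC25A21, the oxodicarboxylate carrier, had 0.255 to 0.953 TPM, and SLC25A10 had no locus of that name.

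The carriers of basic amino acids differed widely in level. SLC25A29 (chromosome 4, 61441007 to 61458876) had 97.1, 80.3 and 88.1 TPM in females 1, 3 and 4 and 49.3, 82.0 and 36.7 TPM in males 1, 4 and 5, with male 4 again among the females. SLC25A15 (chromosome 8, 12328247 to 12364906), the ornithine carrier of the urea cycle, had 4.27, 5.66 and 5.08 TPM in the females and 6.58, 5.97 and 6.56 TPM in the males. Its sexes did not overlap, with the males higher. SLC25A29 exceeded SLC25A15 in 6 of 6 libraries, and the log2(TPM + 1) of SLC25A15 minus that of SLC25A29 was −3.39 ± 0.72 (SD, n = 6). SLC25A2, a further ornithine carrier, was listed at 0 in every library at a locus inside PCDHB14 on the opposite strand. SLC25A39 (chromosome 15, 63016768 to 63022519), which brings glutathione into mitochondria, had 120, 115 and 118 TPM in females 1, 3 and 4 and 93.2, 116 and 60.8 TPM in males 1, 4 and 5. Its paralogue SLC25A40 had no locus of that name.

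Of the nucleotide and cofactor carriers, SLC25A17 (chromosome 6, 107294480 to 107401521) led in TPM, whereas on the level from the mean depth SLC25A51 was above it, with medians of 23.0 and 21.3. SLC25A17 is a peroxisomal member of the family that carries coenzyme A, FAD and NAD. It had 130, 133 and 95.2 TPM in females 1, 3 and 4 and 126, 107 and 134 TPM in males 1, 4 and 5, with female 4 and male 4 lowest. SLC25A16 (chromosome 14, 57738005 to 57966869), linked to coenzyme A in mitochondria, had 55.9, 58.5 and 44.9 TPM in the females and 54.6, 42.3 and 55.2 TPM in the males. Female 4 and male 4 were again lowest. It exceeded SLC25A42 by 4.11 ± 0.53 (SD, n = 6) on the log2(TPM + 1) scale, and by 0.62 ± 0.44 once SLC25A42li1 was added to SLC25A42. SLC25A33 (chromosome 12, 77500527 to 77547135), the other pyrimidine nucleotide carrier, had 12.5, 10.8 and 12.2 TPM in the females and 18.3, 11.8 and 9.80 TPM in the males, above the plain SLC25A36 but below SLC25A36li1 in every library. The NAD carrier SLC25A51 had 19.0 to 26.4 TPM. The folate and FAD carrier SLC25A32 had 11.2 to 13.1 TPM, and SLC25A26, the S-adenosylmethionine carrier, had 2.05 to 17.8 TPM.

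The mitoferrins bring iron to the matrix for haem and iron-sulfur clusters. SLC25A28 (mitoferrin 2, the widespread form, chromosome 14, 9787338 to 9805617) had 72.6, 63.7 and 88.2 TPM in females 1, 3 and 4 and 51.8, 109 and 61.4 TPM in males 1, 4 and 5. SLC25A37 (mitoferrin 1, best known from developing red blood cells, chromosome 19, 9024519 to 9071979) had 29.2, 32.03 and 30.4 TPM in the females and 27.7, 33.6 and 33.1 TPM in the males. In TPM, SLC25A28 was higher in 6 of 6 libraries, by 1.20 ± 0.34 (SD, n = 6) on the log2(TPM + 1) scale, but on a level computed from the mean depth of the locus it was higher in 1 of 6, at −0.31 ± 0.34 (SD, n = 6). Of the 10 listed red blood cell genes found, 4 were tested and 2 passed the adjusted threshold in limma, the globins HBQ1 and HBG, both higher in females. The summed TPM of the 10, in which these 2 had the highest levels, ran from 1288 to 2553 in the females and from 68.9 to 112 in the males. SLC25A37 differed by −0.039 (SE 0.180) between the sexes on the log2(TPM + 1) scale.

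SLC25A14 (contig14653, 849 to 35729), a relative of the uncoupling proteins known from brain, had 13.2, 16.9 and 5.84 TPM in females 1, 3 and 4 and 12.2, 11.1 and 15.9 TPM in males 1, 4 and 5, with female 4 apart. Its relatives SLC25A27 and SLC25A30 had no locus of that name. Among the carriers whose substrate is less settled, SLC25A34 (chromosome 12, 83274008 to 83283114) had 7.71, 5.16 and 7.73 TPM in the females and 3.20, 12.4 and 8.39 TPM in the males. SLC25A35 (chromosome 15, 29492376 to 29497706) had 3.63, 1.67 and 0.827 TPM in the females and 1.44, 2.98 and 0.583 TPM in the males. SLC25A34 was higher in 6 of 6 libraries, by 1.58 ± 0.73 (SD, n = 6) on the log2(TPM + 1) scale. SLC25A53 and SLC25A43, both on chromosome X, had 9.40 to 13.8 and 3.62 to 6.42 TPM. SLC25A48, linked to choline, had 3.90 to 9.85 TPM, whereas SLC25A47 and SLC25A45 stayed at or below 1.40 and 0.203 TPM.

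Which of the related carriers prevailed was compared in preset pairs of genes with the same or a like role. Of 18 such pairs, 11 had both loci in the tables, and in 10 of these the same gene was higher in every library. In 6 of the 10 pairs both genes passed the filter of 0.1 TPM in at least 3 libraries, and these are the pairs whose differences are given above. For each of the 6, the exact two-sided sign-flip permutation test of the 6 within-library differences gave p = 0.0312, the smallest that 6 libraries allow, with a Benjamini-Hochberg value of 0.0344 over all 11 pairs and of 0.0312 over the 6. On the depth-based level SLC25A28 with SLC25A37 turned direction, with an exact sign-flip permutation p of 0.125, and the other 5 kept theirs in every library. In the other 4, SLC25A4 with SLC25A5 and with SLC25A6, SLC25A25 with SLC25A24 and SLC25A33 with SLC25A36, the lower gene was listed at 0 in at least 5 libraries, so the listed 0 set the direction, the test says nothing about them and no fold is given. The remaining pair was SLC25A5 and SLC25A6, both listed at 0 in 5 libraries. With the copies added, SLC25A6 exceeded SLC25A4 in 6 of 6 libraries, by a log2(TPM + 1) difference of SLC25A4 minus SLC25A6 of −2.48 ± 0.28 (SD, n = 6). SLC25A5 minus SLC25A6 was −2.60 ± 0.36 (SD, n = 6) and below 0 in 6 of 6 libraries. SLC25A36 then exceeded SLC25A33 in every library, and SLC25A4 minus SLC25A5 was 0.12 ± 0.22 (SD, n = 6), below its spread and positive in 5 of 6 libraries (exact sign-flip permutation test, p = 0.281).

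The level given to a carrier also depended on how its locus was measured. Besides TPM, the tables list a mean depth of each locus, and within a library the TPM of many loci was one constant times that depth. For other loci TPM was larger than this product, and the sources used here do not say over which bases of a locus the depth was averaged. In the 24 carriers at 1 TPM or more in every library, the TPM exceeded the depth-based level by a median factor of 1.41, against 1.49 over the 12665 stranded loci that reached this level. It was under 1.1 in 8 of the 24 (33.3%, against 28.6% of all such loci), among them SLC25A4, SLC25A11, SLC25A13 and SLC25A1. It was over 2 in 7 of the 24 (29.2%, against 37.6%). The largest median factors were 40.2 for SLC25A26, 24.0 for SLC25A18 and 16.3 for SLC25A53, followed by 7.15 for SLC25A16, 5.99 for SLC25A17, 5.06 for SLC25A25 and 4.04 for SLC25A28.

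On the depth-based level, the order of the carriers was partly different. SLC25A4, SLC25A22 and SLC25A11 led at medians of 335, 134 and 94.9 on the TPM scale. SLC25A17 went from rank 3 to rank 9 of the 24, at 21.3, SLC25A16 from rank 9 to rank 17, at 7.33, and SLC25A18 from rank 11 to rank 22, at 1.70. SLC25A28 fell below SLC25A37, with medians of 18.1 and 23.2, so the order of the mitoferrins rested on the measure used. SLC25A22 exceeded SLC25A18 by 5.49 ± 0.19 (SD, n = 6) and SLC25A16 exceeded SLC25A42 by 1.42 ± 0.50 (SD, n = 6) on this level, against 2.31 and 4.11 for TPM. SLC25A34 exceeded SLC25A35 by 0.99 ± 0.69 (SD, n = 6) on this level, against 1.58 for TPM. SLC25A26 is listed over 616957 bases, 310020 of them shared with MAGI1 on the opposite strand, at a median mean depth of only 0.317.

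**Figure D3:**
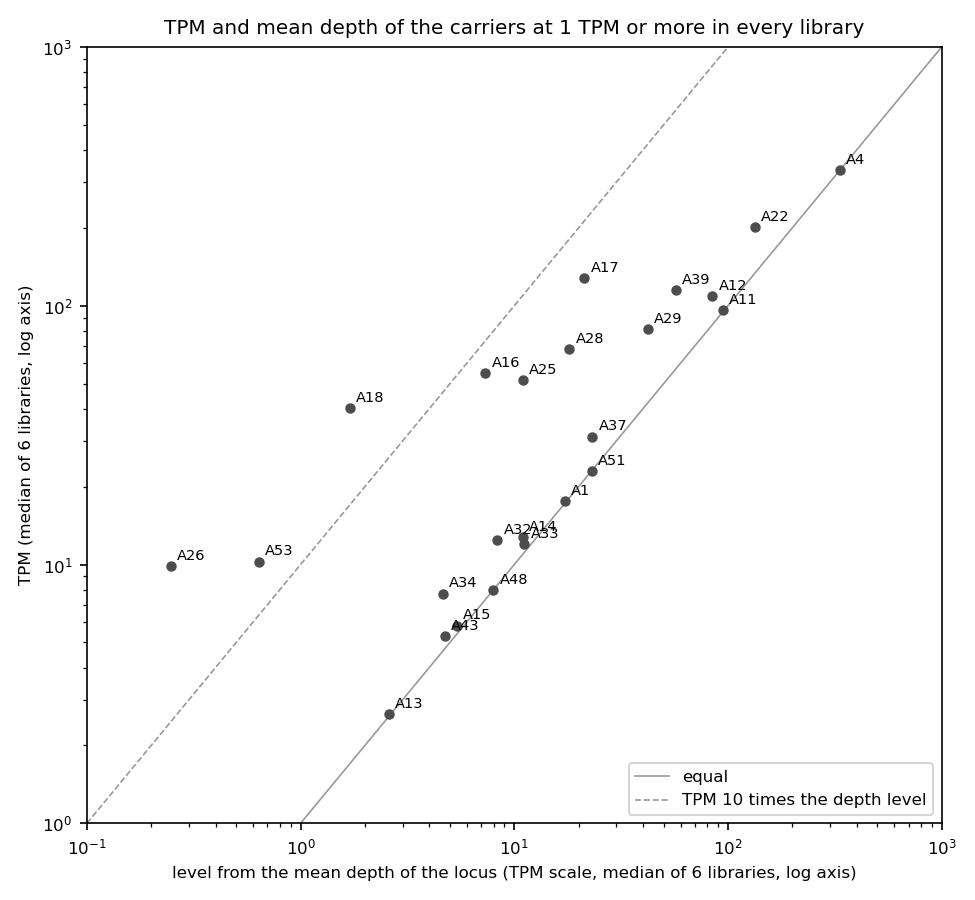
Median TPM (vertical axis) against the median level computed from the mean depth of the locus, on the TPM scale (horizontal axis), for the 24 carriers at 1 TPM or more in every library, with log axes and A4 standing for SLC25A4. Points on the solid line have equal values and the dashed line marks a factor of 10, above which SLC25A26, SLC25A18 and SLC25A53 lie.

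The spread over the 6 libraries was described by the coefficient of variation (SD over mean). Its median was 23.0% in the 24 carriers at 1 TPM or more in every library, against 24.2% in the 12662 stranded loci outside the removed segments at that level. In the 14 carriers at 10 TPM or more it was 17.2%, against 20.0% in 7483 loci. In TPM, SLC25A32 had the smallest of the 24 at 5.18%, followed by SLC25A37 at 7.44%, whereas on the depth-based level SLC25A32 was at 12.4% and SLC25A37 at 7.22%. Among these 24, the 5 with the largest SD of log2(TPM + 1) were SLC25A26, SLC25A34, SLC25A29, SLC25A14 and SLC25A22, at 1.01, 0.57, 0.55, 0.50 and 0.47. SLC25A26 (chromosome 23, 38820587 to 39437543) had 10.3, 9.49 and 3.06 TPM in females 1, 3 and 4 and 2.05, 10.9 and 17.8 TPM in males 1, 4 and 5. Its coefficient of variation was 64.5% for TPM and 11.0% for the depth-based level. For SLC25A22 these were 32.6% and 17.7%, and for SLC25A39 22.4% and 12.8%. For SLC25A29 they were 32.9% and 31.9%, and for SLC25A14 31.4% and 31.5%, so the spread of these 2 was as large on either measure. The carriers had their lowest value in male 5 in 9 of 24 cases, in male 1 in 6 and in female 4 in 5, and in female 3 in none.

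Between the sexes, no carrier was called. The female minus male difference in mean log2(TPM + 1) was tested with limma (a linear model with variances moderated over all genes) on 30238 genes, with Benjamini-Hochberg adjustment inside the X chromosome and inside the rest and a threshold of 0.1. In all genes tested 5 passed, which is 0.0165%. The filter kept 29 of the 37 carriers, and none of the 29 passed, the smallest adjusted p by limma being 0.924. At an unadjusted p under 0.05 there was 1 of 29, SLC25A29, against 5.03% of all genes tested. Means were higher in females in 16 of the 29 and in males in 13, against 46.9% higher in females in all genes tested. The median difference of the 29 was 0.066, against −0.029 in all genes tested. Every female was above every male in 1 carrier (SLC25A42, 3.45% of the 29, against 4.92% of all genes tested), and every male above every female in 2 (SLC25A15 and SLC25A53, against 4.93%). These counts were near the background and are no result about the carriers.

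SLC25A29 was 0.73 (SE 0.28) higher in females on the log2(TPM + 1) scale, with an unadjusted limma p of 0.0294 and an adjusted p of 0.924. The means were 88.5 TPM in females and 56.0 TPM in males, but male 4 exceeded female 3. Without male 4 the difference was 1.04 with an unadjusted limma p of 0.00120, and without male 5 it was 0.47. Without female 1, male 1 or male 5 no carrier had an unadjusted p under 0.05, and without female 4 SLC25A29 was at 0.0595 and SLC25A25, at 0.0247, was the 1 carrier under it. The next smallest p-values belonged to SLC25A1, at 0.60 (SE 0.28), SLC25A25, at 0.43 (SE 0.21), SLC25A11, at 0.35 (SE 0.19), and SLC25A39, at 0.43 (SE 0.24), with unadjusted limma p-values of 0.0642 to 0.102. In each of the 4 the female mean was the higher, and in each of them, as in SLC25A29, males 1 and 5 were the lowest libraries. These are the libraries with the largest share of TPM at loci without a strand, whose part in the differences was not tested. SLC25A4 differed by 0.29 (SE 0.20), SLC25A22 by 0.17 (SE 0.32) and SLC25A12 by 0.003 (SE 0.208), each less than 2 standard errors. Of the 2 carriers on chromosome X, the smaller unadjusted limma p was 0.367, for SLC25A53.

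**Figure D4:**
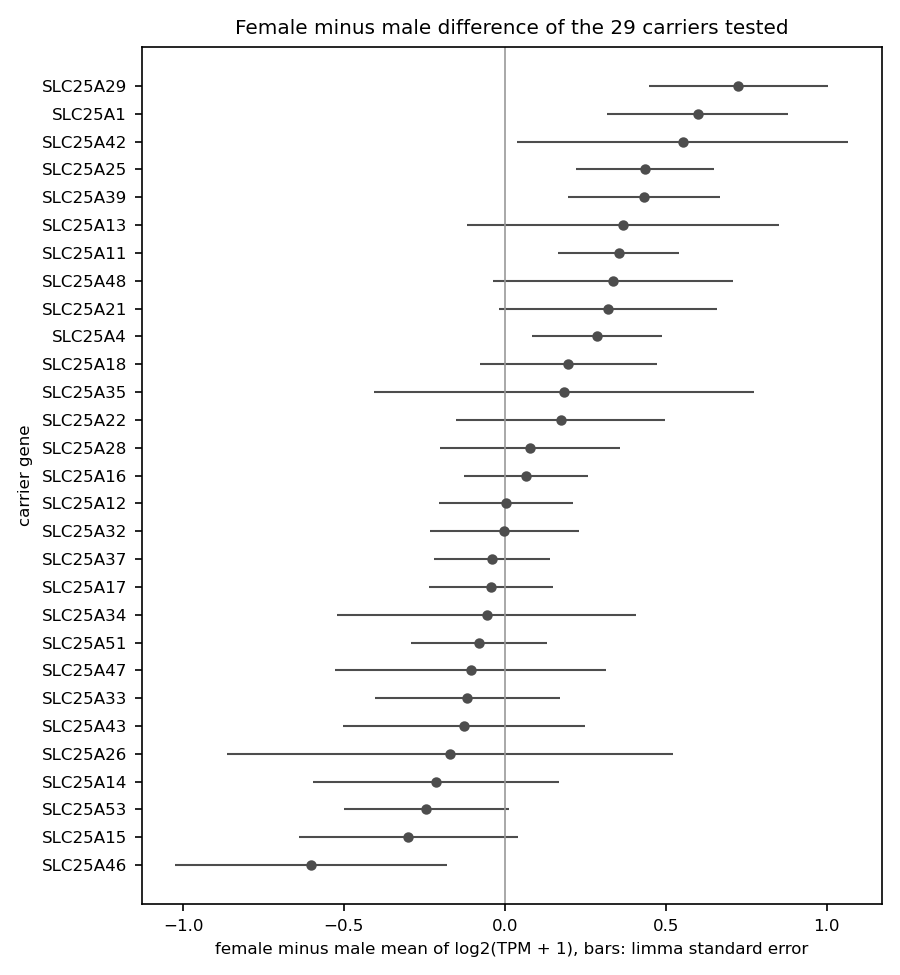
Female minus male difference in mean log2(TPM + 1) (horizontal axis) of the 29 carriers that passed the filter (vertical axis), 3 females against 3 males. Points are the differences and bars the limma standard errors; SLC25A29 lies farthest to the right at 0.73, and no carrier passed the adjusted threshold.

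Summed over the 37 carriers, females 1, 3 and 4 had 1702, 1449 and 1435 TPM and males 1, 4 and 5 had 1349, 1487 and 1174 TPM. The 3 females averaged 1529 ± 151 TPM (SD) and the 3 males 1337 ± 157 TPM (SD), and male 4 lay above females 3 and 4. With the copies added the sums were 4428, 3907 and 4403 TPM in the females and 3055, 4176 and 2999 TPM in the males. Males 1 and 5 were then the lowest 2 libraries.

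The partners of the carriers gave no call either. None of the 15 tested genes of the 5 partner lists passed the adjusted threshold in limma, and 0 had an unadjusted p under 0.05. Over all genes tested these shares were 0.0165% and 5.03%, so the counts are no result about the partners. Of the malate-aspartate shuttle enzymes, GOT1, GOT2 and MDH2 had 336 to 428, 406 to 536 and 926 to 1291 TPM, above the carriers SLC25A12 and SLC25A11 that serve the same shuttle. The mitochondrial pyruvate carrier, which belongs to another family, had 443 to 639 TPM for MPC1 and 198 to 290 TPM for MPC2. VDAC3 had 405 to 513 TPM, with a median of 451 TPM against 42.2 on the depth-based level. Of the import machinery that inserts carriers into the inner membrane, the receptor TOMM70 had 37.1 to 68.7 TPM and TIMM22, the core of the inner-membrane insertase, 22.6 to 33.0 TPM. TIMM9, TIMM10 and TOMM20 were listed at 0 in every library. Of carrier relatives under other symbols, MTCH1 had 321 to 497 TPM and exceeded SLC25A4 in 6 of 6 libraries, although its median on the depth-based level was lower, at 293 against 335. UCP3, at a locus of 148123 bases, had 4.95 to 9.89 TPM, with a median of 7.72 TPM against 2.69 on the depth-based level. How much of it belongs to UCP3 was not analysed here. UCP1 stayed at or below 0.541 TPM. Of the calcium uniporter, the pore MCU had 16.6 to 28.4 TPM, with a median of 21.6 TPM against 2.07 on the depth-based level, and its brain regulator MICU3 38.1 to 66.2 TPM, while MCUB was listed at 0.

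Cell type markers are given beside these values. The summed TPM of the neuron markers lay between 6508 and 8275 in the females and between 6290 and 7547 in the males, and that of the astrocyte markers between 1404 and 2079 and between 1432 and 2184, so both overlapped. Within the astrocyte sum, which SLC1A2 and SLC1A3 led, ALDH1L1 had 29.1, 27.3 and 50.8 TPM in females 1, 3 and 4 and 18.9, 27.4 and 7.12 TPM in males 1, 4 and 5. Males 1 and 5 were its lowest libraries, as in SLC25A29, and it differed by 1.09 (SE 0.45) with an unadjusted limma p of 0.0408 and an adjusted p of 0.924. The other astrocyte markers did not follow it. GFAP, SLC1A3 and AQP4 differed by −0.25, −0.13 and −0.026, and SLC1A2 by 0.003. Female 4 was the lowest library in GFAP, SLC1A3 and AQP4, and male 1 in SLC1A2. The microglia markers had 220 to 236 TPM in females and 162 to 304 in males, and the endothelium markers 364 to 432 and 325 to 491. PECAM1 alone had 252 to 410 TPM of the endothelium sum. Its median was 312 TPM against 20.1 on the depth-based level, so its weight in the sum rested on the measure used. The means of PECAM1 and CDH5 were higher in males while those of CLDN5, FLT1 and VWF were higher in females. CLDN5 differed by 0.83 (SE 0.24) with an unadjusted limma p of 0.00867 and an adjusted p of 0.924, and neither CLDN5 nor FLT1 overlapped between the sexes. Every female was above every male in both, and in 4.92% of all genes tested. Of 6 oligodendrocyte markers, 3 had a locus of that name (MAG, MOG and MBP), and their sum was 348 to 482 TPM in females and 80.7 to 236 in males. MAG differed by 1.68 (SE 0.30) without overlap of the sexes, with an unadjusted limma p of 0.000388 and an adjusted p of 0.880, and MOG by 1.64 (SE 0.61), with 0.0252 and 0.924. The coefficient of variation of MAG was 59.5% for TPM and 32.3% for the depth-based level. MBP, at a locus of 893 bases, differed by 0.27 (SE 0.31) with overlap of the sexes and an unadjusted limma p of 0.402. Of the markers of all 6 cell types, the 2 globins HBQ1 and HBG passed the adjusted threshold, both higher in females. The part of astrocytes, oligodendrocytes, endothelium and blood in the differences of the carriers was not tested.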

How the data were processed

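Polyadenylated prefrontal cortex RNA had been sequenced as paired reads, 1 library for each of 6 tree shrews. The authors mapped reads to TS_3.0 with HISAT2 (version 2.2.1), assembled transcripts with StringTie (version 2.2.1), merged them with the reference annotation and measured each animal against the merged set. The deposited tables hold TPM, FPKM and coverage signal (mean depth) per locus, as the authors obtained them from StringTie, and no counts, so no count model was used. Depth in reads is not known from these values, so no interval covers counting error, and the number of animals limits the precision.

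Members and lists were chosen with earlier results of these data known. TPM was summed per gene identifier and sequence. Genes that reached 0.1 TPM in at least 3 libraries entered limma 3.58.1 (R 4.3.3) on log2(TPM + 1), which compresses the change of weakly expressed genes, with a mean-variance trend, no covariate and two-sided tests. The X segment from 4542400 to 6144400 and chromosome 26 before 3132930 were left out, as in the study. Adjustment ran within chromosome X (744 genes) and within the rest (29494 genes, unplaced contigs included). Pairs were compared by exact sign-flip permutation over 64 sign patterns in Python 3.11.15 (numpy 2.4.6, pandas 2.3.3), and figures drawn with matplotlib 3.10.9. The depth-based level is the mean depth times the smallest ratio of TPM to depth among loci of a library with a depth above 5. It was added after the data were seen. On simulated data for this female minus male comparison of 30238 genes, 138 of 200 changed genes were recovered with 12 other calls, and 0 calls were made without change. The noise was normal, with SDs smoothed over the genes. The planted changes were at least 1 log2 unit, above the 0.73 of SLC25A29. The recovery therefore does not measure the power for differences of the size seen in the carriers.

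Values per library are given for the members of preset pairs, the 10 highest medians, the 5 smallest p-values and the 5 largest SDs among members at 1 TPM or more in every library, and ranges for the rest. Alternatives were FPKM, median-ratio scaling, a pseudocount of 0.1, quantile normalization, a filter at 1 TPM or none, single loci in place of sums, limma without the trend, adjustment over all genes together, the copies added, TPM rescaled to stranded loci, the animal number as a block and each library left out. Stranded loci only, the depth-based level and pairs past the filter only were added after the data were seen. RefSeq's symbol table (TupChi_1.0) was used for names only: 35 of the 37 symbols matched. No sequence is printed.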

Additional observations from a re-analysis of the deposited data

How the results depend on the processing

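No carrier passed the adjusted threshold between the sexes in any of the 18 alternatives. The number with an unadjusted p under 0.05, which was 1, became 2 with median-ratio scaling, 3 with FPKM and 0 with limma without the trend, and ranged from 0 to 5 when 1 library was left out: 0 without female 1, male 1 or male 5, and 5 without male 4 (SLC25A1, SLC25A11, SLC25A25, SLC25A29 and SLC25A39, all higher in females). With the animal number as a replicate block it was 0, and 0 carriers passed the adjusted threshold. That fit takes the sex difference only from the libraries numbered 1 and 4, so female 3 and male 5 do not enter the difference. The animals that share a number are different animals, and only numbers 1 and 4 occur in both sexes, with correlations of −0.0048 and 0.038 between their deviations over genes, so the numbers do not pair them. SLC25A29 was higher in females in all 18 alternatives, by 0.47 to 1.04 on the log2(TPM + 1) scale, and the 4 carriers with the next smallest p were also higher in females in all 18, by 0.45 to 0.87 for SLC25A1, 0.24 to 0.51 for SLC25A11, 0.25 to 0.59 for SLC25A25 and 0.18 to 0.64 for SLC25A39. SLC25A39 was lowest without male 5, at 0.18, and was at 0.20 both with the block and on the depth-based level, and SLC25A25 was at 0.28 without female 3, at 0.29 with the block and at 0.25 on the depth-based level. SLC25A11 was at 0.24 without male 5. The summed TPM of the carriers, 191.7 TPM higher in females, was 836 TPM higher with the gene-like copies added, and 105 to 267 TPM higher when 1 library was left out. The share of SLC25A4 in the ADP/ATP exchange TPM moved from 99.99% to 13.4% with the copies added. The copies turned the log2 difference of SLC25A4 minus SLC25A6 to −2.48 and of SLC25A33 minus SLC25A36 to −2.06, by their construction, and the depth-based level turned that of SLC25A28 minus SLC25A37 to −0.31. The number of pairs with 1 direction in every library was 6 when the pairs with a gene under the filter were left out and 9 or 10 in the other alternatives, not always the same pairs: with the copies added SLC25A4 with SLC25A5 lost its single direction and SLC25A5 with SLC25A6 gained one. With 1 library left out the smallest p that 5 libraries allow is 0.0625, so no pair can pass.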

Other observations

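In the 24 carriers at 1 TPM or more in every library, the 2 lowest libraries were often the same pair, a pattern seen after the values were known and given here as counts only. Males 1 and 5 were the 2 lowest in 8 of the 24 (33.3%, against 15.9% of the 12662 stranded loci at that level): SLC25A1, SLC25A11, SLC25A18, SLC25A25, SLC25A28, SLC25A29, SLC25A39 and SLC25A48. Female 4 and male 4 were the 2 lowest in 6 of the 24 (25.0%, against 16.5%): SLC25A12, SLC25A14, SLC25A16, SLC25A17, SLC25A32 and SLC25A51. Female 4 and male 1 were the 2 lowest in 1 of the 24, SLC25A26 (4.17%, against 16.1%).

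Some carriers had no locus under their own symbol. Examples listed in the RefSeq symbol table are SLC25A20, the acylcarnitine carrier, SLC25A38, a glycine carrier, and SLC25A44. The tables give 1 name to each merged locus, so a carrier merged with a neighbour can stand under the neighbour's name. One example was picked after its values were seen: the study's own gene list gives the name SLC25A44, a branched-chain amino acid carrier, to the locus that the tables call BGLAP (chromosome 7, 74159700 to 74261320). This locus had 326, 321 and 315 TPM in females 1, 3 and 4 and 339, 414 and 358 TPM in males 1, 4 and 5. Its TPM was 3.84 times the depth-based level (median), and how much of it belongs to either gene was not analysed here. In the same way, RNA of a neighbour can stand under the name of a carrier. SLC25A17, SLC25A18, SLC25A16 and SLC25A32 are listed over 107042, 188252, 228865 and 451577 bases. How much of their TPM belongs to the carrier was not analysed either.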
